A study of Rattus norvegicus with 17 samples.

Results

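The 9 genes described here write, maintain, erase or read cytosine methylation, and they were taken by gene symbol from a count table of 34322 genes. They are the DNA methyltransferases Dnmt1, Dnmt3a and Dnmt3b, the maintenance partner Uhrf1, the dioxygenases Tet1, Tet2 and Tet3, the methyl-CpG reader Mbd2, and Gadd45b, a stress and activity gene linked to demethylation. Messenger RNA was sequenced from the hippocampus of adolescent Long-Evans rats of both sexes aged 36 to 38 days. The ET dams drank a liquid diet holding 6.7% ethanol up to gestational day 20, the pair-fed PF dams a comparable liquid diet free of ethanol, and the AD dams ate standard chow ad libitum. After that day the ET and PF dams, like the AD dams, ate chow. The study left out 3 of its 17 libraries, and the 14 that remained were 4 ET (2 males and 2 females), 5 PF (2 males and 3 females) and 5 AD (3 males and 2 females by label). Each diet group came from 1 litter, so that diet and litter cannot be told apart and the p-values measure the spread among littermates.

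In mammalian DNA, methyl groups sit mainly on the cytosine of CpG dinucleotides. Dnmt3a and Dnmt3b place them on unmethylated sites, while Dnmt1, guided by Uhrf1 to newly copied DNA, restores the pattern after replication. The Tet enzymes oxidise methylated cytosine to hydroxymethylcytosine and further products, which base excision repair can replace with plain cytosine. Mbd2 binds methylated CpG and brings the NuRD (nucleosome remodelling and deacetylase) complex to it. In the brain, neurons keep Dnmt3a, Dnmt1 and the Tet enzymes after they stop dividing and are rich in hydroxymethylcytosine, and Gadd45b is known in the hippocampus as a gene that neuronal activity induces.

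The promoters of the demethylation genes themselves differ in how many CpG sites they offer. The sequences printed are the 250 bases before the transcription start in RefSeq, on the assembly GRCr8, which is a later assembly than the one the reads were mapped to. They show the 3 Tet genes, whose lowest and highest levels fell in the same libraries, and Gadd45b, the activity gene. For Tet1 (3 listed starts) and Tet3 (4 listed starts), the start with the most CpG is given, and capitals mark each CpG.
Tet1, chr20:25781119-25781368, plus strand: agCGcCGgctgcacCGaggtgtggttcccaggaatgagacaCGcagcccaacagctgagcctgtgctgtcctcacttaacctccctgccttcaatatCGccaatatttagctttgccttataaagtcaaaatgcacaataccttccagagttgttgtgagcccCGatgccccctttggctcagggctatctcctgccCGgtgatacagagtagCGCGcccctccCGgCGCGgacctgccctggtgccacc
Tet2, chr2:224746187-224746436, minus strand: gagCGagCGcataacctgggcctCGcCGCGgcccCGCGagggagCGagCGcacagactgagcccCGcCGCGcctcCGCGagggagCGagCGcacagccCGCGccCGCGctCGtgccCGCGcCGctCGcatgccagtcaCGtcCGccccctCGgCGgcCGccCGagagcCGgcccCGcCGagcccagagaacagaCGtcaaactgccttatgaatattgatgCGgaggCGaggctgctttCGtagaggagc
Tet3, chr4:117521046-117521295, minus strand: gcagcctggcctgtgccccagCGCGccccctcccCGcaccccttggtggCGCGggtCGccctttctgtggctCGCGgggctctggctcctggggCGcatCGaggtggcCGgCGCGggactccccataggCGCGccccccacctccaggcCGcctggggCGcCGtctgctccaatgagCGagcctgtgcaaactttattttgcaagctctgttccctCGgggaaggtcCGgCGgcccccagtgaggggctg
Gadd45b, chr7:9430719-9430968, minus strand: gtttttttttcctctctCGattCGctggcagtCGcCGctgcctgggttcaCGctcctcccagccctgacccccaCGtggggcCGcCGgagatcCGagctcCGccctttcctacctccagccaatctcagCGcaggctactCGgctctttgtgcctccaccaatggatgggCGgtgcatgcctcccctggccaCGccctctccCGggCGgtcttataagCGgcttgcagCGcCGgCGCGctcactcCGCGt
Each is written 5′ to 3′ on the strand of the gene. Of the 9 genes, 8 had an entry, with Dnmt3b the exception, and the median over 33469 rat promoters of this length was 5 CpG. The Tet2 window held 38 CpG, more than 98.3% of all promoters, against 22 in Tet3 (more than 86.3%) and 12 in Tet1 (more than 68.5%). The last 2 are the highest of several starts, and the other starts held 3, 3 and 12 CpG in Tet3 and 1 and 2 in Tet1. The Gadd45b window held 23 CpG, more than 87.7% of promoters, together with a CCAAT box (in 34.0% of all promoters on either strand), a GGGCGG box (30.5%), the E-box CACGTG (5.59%) and TATAA (24.0%). TGACG (18.2%) and TTTNNCGC (4.11%) were also searched on both strands, with overlaps between motifs allowed. Tet2 held GGGCGG and TGACG, Tet3 held CCAAT, and Tet1 held CCAAT and TATAA. These are matches of letters in the window and say nothing of which factors bind there.

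Between 10853947 and 17498392 fragments were counted per library. Hippocampal identity was checked on 8 marker genes, of which 7 were well detected in all 14 libraries, while Spink8 stayed between 1.16 and 5.15 normalized counts. Normalized counts are counts scaled by TMM to a common library size. Several libraries stood apart. The 3 libraries the study left out had summed counts of 10 choroid plexus markers from 98670 to 125419, against 108 to 16397 in the 14 kept. Of those kept, PF replicate 2 (16397) and ET replicate 1 (15238) had the highest sums, and AD libraries reached at most 2170. ET replicate 1 had the lowest Prox1, a dentate gyrus marker, at 111 against 244 to 681 in the other 13. In 2 AD libraries the Y-linked genes went against the sex label, and sexes were therefore compared in ET and PF only. In bulk RNA, fewer cells of a type and less RNA per cell cannot be told apart.

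**Figure D1:**
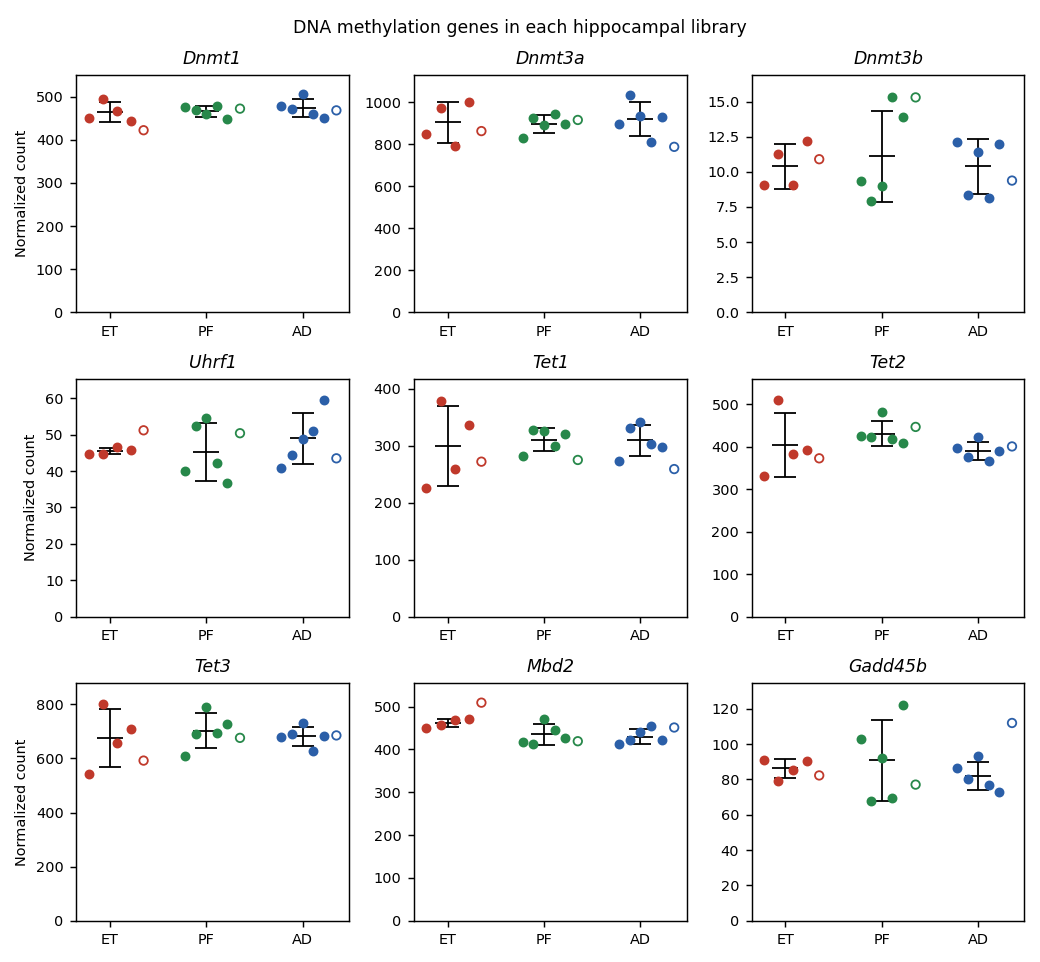
Normalized counts of the 9 methylation genes by diet, with filled points for the 14 libraries analysed, open points for the 3 the study left out, and bars for the mean and SD of the filled points. The 3 diets overlap for every gene, the Tet genes spread most in ET, and Gadd45b spreads most in PF.

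Dnmt1, the maintenance methyltransferase, was the steadiest of the 9. In the order ET replicates 1, 3, 4 and 5, PF replicates 1, 2 and 3, PF animal 11f5, PF replicate 6, and AD replicates 1, 2, 3, 5 and 6, which holds for every gene described, its normalized counts were 451, 495, 467 and 444 in ET, 476, 469, 459, 477 and 448 in PF, and 478, 471, 506, 459 and 451 in AD. The diets overlapped throughout, and the coefficient of variation over the 14 libraries was 3.80%, against a median of 11.3% over 16272 genes. Means were 464 ± 22.7 (SD, n = 4) in ET, 466 ± 12.4 (n = 5) in PF and 473 ± 21.0 (n = 5) in AD. The log2 fold change of ET over PF was -0.01 (SE 0.05, 95% interval -0.13 to 0.11), so that the interval holds changes of at most 1.09-fold in either direction.

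Dnmt3a, the de novo enzyme of mature neurons, measured 848, 974, 793 and 1001 normalized counts in ET, 832, 926, 890, 944 and 895 in PF, and 897, 1036, 933, 812 and 932 in AD. High and low libraries occurred in each diet, with means of 904 ± 99.5 (SD, n = 4), 898 ± 42.8 (n = 5) and 922 ± 80.2 (n = 5). The ET over PF log2 fold change was 0.01 (95% interval -0.16 to 0.18) and the PF over AD value -0.04 (-0.17 to 0.10). Dnmt3b, known chiefly as the embryonic de novo enzyme, was close to the lower end of what the table resolves. Its normalized counts were 9.10, 11.3, 9.04 and 12.2 in ET, 9.35, 7.95, 9.01, 15.3 and 13.9 in PF, and 12.1, 8.33, 11.4, 8.15 and 12 in AD. It had the largest coefficient of variation of the 9 (21.4%) and the widest ET over PF interval (-0.65 to 0.43), which leaves room for a change of 1.57-fold. A pseudogene, Dnmt3b-ps1, overlaps Dnmt3b in the GRCr8 annotation, and reads were allowed to count for more than 1 feature, so the counts of Dnmt3b are uncertain.

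Uhrf1, which recruits Dnmt1 to newly copied DNA, gave 44.8, 44.8, 46.5 and 45.7 normalized counts in ET, 39.9, 52.5, 54.7, 42.2 and 36.7 in PF, and 40.9, 44.5, 48.9, 51.1 and 59.4 in AD. The 4 ET libraries fell close together, inside the range of both control groups. Its ET over PF log2 fold change was -0.00 (SE 0.14, 95% interval -0.31 to 0.30) and ET over AD -0.11 (SE 0.12, -0.38 to 0.16). Uhrf1 overlaps the protein-coding gene Arrdc5 in the annotation.

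The 3 Tet genes had their lowest and their highest library in ET. Tet1 measured 225, 379, 260 and 336 normalized counts in ET, 282, 327, 326, 299 and 320 in PF, and 273, 331, 342, 303 and 298 in AD. Tet2 measured 332, 510, 383 and 393 in ET, 425, 424, 481, 419 and 408 in PF, and 397, 375, 423, 367 and 391 in AD. Tet3 measured 543, 801, 656 and 707 in ET, 610, 690, 790, 693 and 726 in PF, and 678, 689, 730, 628 and 682 in AD. ET replicate 1 was the lowest and ET replicate 3 the highest of the 14 for all 3 genes, so the SD in ET was 70.2 for Tet1, 75.4 for Tet2 and 108 for Tet3, against 19.6, 28.8 and 65.1 in PF. The log2 fold changes of ET over PF were -0.05 (SE 0.14) for Tet1, -0.10 (SE 0.11) for Tet2 and -0.06 (SE 0.11) for Tet3. Leaving out ET replicate 1 or ET replicate 3 moved these values most, over a range of -0.19 to 0.06 for Tet1, -0.23 to -0.01 for Tet2 and -0.15 to 0.04 for Tet3 when each library was left out in turn.

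Mbd2, the reader of methylated CpG, had normalized counts of 450, 456, 469 and 471 in ET, 417, 412, 471, 446 and 427 in PF, and 413, 422, 440, 454 and 421 in AD. The ET libraries lay in the upper part of the range, but PF replicate 3 matched the highest of them and AD replicate 5 exceeded the lowest. Means were 461 ± 10.3 (SD, n = 4) in ET, 435 ± 24.2 (n = 5) in PF and 430 ± 16.8 (n = 5) in AD. ET was above PF by 0.08 on the log2 scale (SE 0.06, 95% interval -0.05 to 0.21, edgeR adjusted p = 0.719) and above AD by 0.10 (SE 0.05, -0.01 to 0.21, edgeR adjusted p = 1). Neither difference passed the test.

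Gadd45b, the activity-induced gene, had normalized counts of 91.0, 79.2, 85.2 and 90.2 in ET, 103, 68.1, 92.2, 69.5 and 122 in PF, and 86.6, 80.5, 93.4, 76.7 and 72.9 in AD. PF held both the highest and the lowest library, with a mean of 90.9 ± 23.0 (SD, n = 5) against 86.4 ± 5.44 (n = 4) in ET and 82.0 ± 8.12 (n = 5) in AD. The ET over PF log2 fold change was -0.08 (SE 0.17, 95% interval -0.45 to 0.30) and turned to 0.17 (SE 0.14) when only left hippocampi were used, which removes PF replicates 1 and 6.

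**Figure D2:**
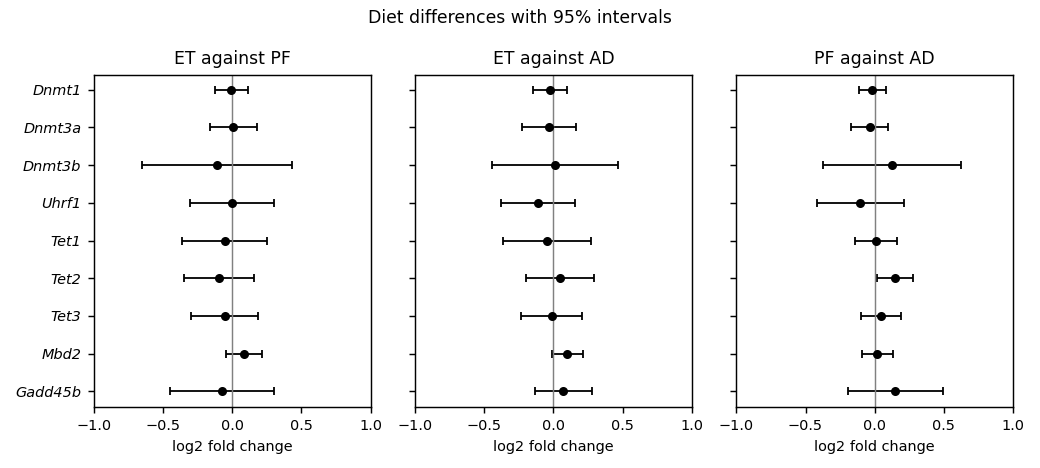
Log2 fold changes of the 9 methylation genes for ET against PF, ET against AD and PF against AD (edgeR), with bars for the 95% interval. Apart from Tet2 in PF against AD (0.02 to 0.28), all intervals hold 0, and the interval of Dnmt3b is the widest in each panel.

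The main comparison asked whether exposure to ethanol before birth altered expression in adolescence. By quasi-likelihood F tests in edgeR, adjusted over all genes tested by the method of Benjamini and Hochberg, 0 of the 9 genes passed an adjusted p of 0.05 in ET against PF, where 4.13% of 16068 genes passed. Under the study's stricter rule, an adjusted p below 0.01 and a log2 fold change beyond 1.5 in either direction, the count was again 0 of 9, against 2.17% of all genes. An unadjusted p below 0.05 was reached by 0 of the 9 and by 1917 genes in all, and DESeq2 also called 0 of 9. The median log2 fold change of the 9 was -0.05, with a range of -0.11 to 0.08, beside a median of 0.01 over all genes tested. For 8 of the 9, the 95% interval excluded a change of 1.5-fold, with Dnmt3b the exception. The groups did not overlap for 0 of the 9 genes, against 6.78% of 16272 genes.

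In ET against AD, 0 of the 9 genes passed by either rule, and so few genes passed in all (0.0127% of 15749 by each rule) that this count says little about the 9. Unadjusted p-values below 0.05 numbered 0 of 9 in edgeR and 432 in all, and DESeq2 called 0 of 9. The log2 fold changes ran from -0.11 for Uhrf1 to 0.10 for Mbd2, and all 9 intervals excluded a change of 1.5-fold, the widest being 1.38-fold for Dnmt3b. The normalized counts of ET and AD were separate for 0 of 9 genes and for 1.25% of all.

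The PF and AD controls differed in the form of the diet, in the amount fed and in litter, which cannot be told apart. In PF against AD, where 5.17% of 15960 genes passed the adjusted p rule and 2.05% the stricter one, 0 of the 9 passed either in edgeR, and 0 passed in DESeq2. Tet2 was the 1 gene with an unadjusted p below 0.05, among 2622 genes in all. It was higher in PF by 0.15 on the log2 scale (SE 0.06, 95% interval 0.02 to 0.28, edgeR adjusted p = 0.237), and all 5 PF libraries lay above 4 of the 5 AD libraries, whereas AD replicate 3 (423 normalized counts) fell inside the PF range. For Gadd45b the value was 0.15 (SE 0.16) and for Dnmt3b 0.13 (SE 0.23), both with intervals that hold 0. PF and AD counts did not overlap for 0 of 9 genes, against 6.74% of all genes. The 3 comparisons share samples with each other, so their values are not independent.

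Sexes were compared in the 9 ET and PF libraries with diet in the fit. Of the 9 genes, 0 passed in edgeR by either rule, where 0.0436% of 16068 genes passed by adjusted p and 0.0311% by the stricter rule, and an unadjusted p below 0.05 was reached by 0 of 9 and by 301 genes in all. Dnmt3b had the largest difference, with males higher by 0.45 on the log2 scale (SE 0.21, 95% interval -0.02 to 0.92, adjusted p = 1). Its PF males measured 15.3 and 13.9 normalized counts and the PF females 9.35, 7.95 and 9.01, whereas the ET males measured 9.04 and 12.2 and the ET females 9.10 and 11.3. The sexes were thus apart in PF and overlapped in ET, but the interaction of sex and diet did not pass (log2 -0.67, SE 0.40, adjusted p = 1). For the other 8 genes the difference between the sexes lay between -0.16 (Uhrf1) and 0.08 (Gadd45b). The interaction was passed by 0 of 9 genes and by 0% of 16484 genes, with 231 genes at an unadjusted p below 0.05, and 0 of the 9 passed in DESeq2 for sex or for the interaction. Its intervals were wide, up to 2.99-fold for Dnmt3b, and excluded 1.5-fold for 4 of 9.

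**Figure D3:**
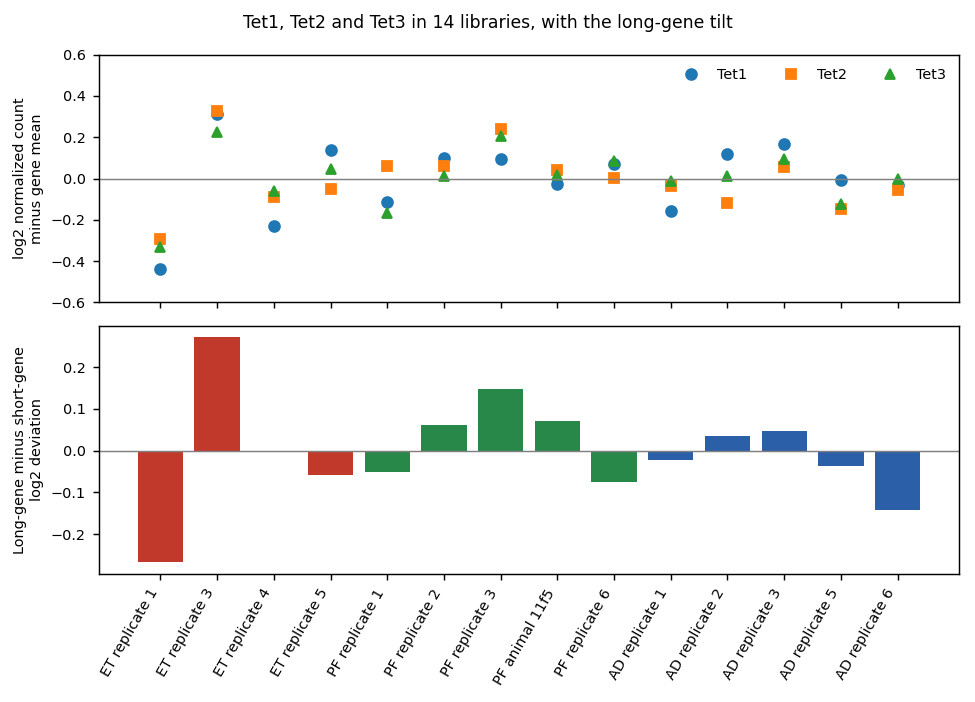
Upper panel, log2 normalized counts of Tet1, Tet2 and Tet3 in each of the 14 libraries minus the mean of the gene; lower panel, the median log2 deviation of long genes minus that of short genes in the same libraries. The 3 Tet genes are lowest in ET replicate 1 and highest in ET replicate 3, which also hold the lowest (-0.268) and highest (0.272) bars.

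Levels of Tet3 were correlated with those of Tet1 from rat to rat by both measures used, and with those of Tet2 by Pearson r alone. This was examined after the values had been seen, over all 36 pairs of the 9 genes, as correlations of log2 levels over the 14 libraries with permutation p-values adjusted over the 36. Tet1 and Tet3 had Pearson r = 0.851 (adjusted permutation p = 0.00504) and Spearman rho = 0.807 (adjusted permutation p = 0.027). Tet2 and Tet3 had r = 0.821 (adjusted permutation p = 0.0108) and rho = 0.648 (adjusted permutation p = 0.175). For Tet1 and Tet2, r was 0.702 and rho 0.464, with adjusted permutation p-values of 0.0698 and 0.555. By Pearson r 2 of the 36 pairs passed, and by Spearman rho 1. With ET replicates 1 and 3 left out (n = 12), r fell to 0.614 for Tet1 and Tet3, 0.595 for Tet2 and Tet3 and 0.264 for Tet1 and Tet2. Each value thus rests in part on those 2 libraries, the last the most, and r at n = 12 was not tested. With the mean of each diet removed, r of Tet1 and Tet3 was 0.852. The diets hold 4 or 5 libraries each, too few for a correlation within a diet.

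The same 2 libraries stood at the ends of a shift that took in many long genes. In each library, the median log2 deviation of the 10% of genes with the longest span in the genome was set against that of the 10% with the shortest, 1483 genes each. This difference was -0.268 in ET replicate 1 and 0.272 in ET replicate 3, and lay between -0.143 and 0.148 in the other 12. Over the 14 libraries its Pearson correlation was 0.741 with Tet1, 0.859 with Tet2, 0.803 with Tet3, 0.615 with Dnmt1, 0.344 with Dnmt3a, 0.204 with Mbd2, 0.0726 with Uhrf1, 0.0137 with Dnmt3b and -0.251 with Gadd45b. By Spearman rho the order differed, with 0.648 for Dnmt1, 0.640 for Tet2, 0.604 for Tet3, 0.521 for Tet1, and -0.310 to 0.297 for the other 5 genes. These values were looked at after the Tet levels had been seen and are given as a description, and the part of the shift in the Tet correlations was not tested. ET replicates 1 and 3 also held the lowest and highest Prox1 (111 and 681) and summed astrocyte markers (42092 and 61920) of the 14. Summed hippocampal neuron markers were lowest in ET replicate 1 (9650) but highest in PF replicate 3 (20457). The part of such markers in the Tet levels was not tested. Tet1 and Tet3 each overlap a long non-coding RNA in the annotation, and Tet2 overlaps no other gene.

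Of all 16271 other genes tested, those most like Tet2 over the 14 libraries were Ankhd1 (r = 0.946), Birc6 (0.936) and Mga (0.935). Those most like Tet3 were Zfp606 (0.937), Kdm5a (0.925) and Kdm3a (0.922), the last pair being histone demethylases, and Tet1 was most like Atad2b (0.928). For Dnmt3a the nearest were Jarid2 (0.892), a partner of Polycomb complexes, Ptprd (0.872) and Pde4b (0.858), and for Mbd2 Zfand6 (0.883). Gadd45b was most like Acadl (0.895) and Patz1 (0.886). Dnmt1 (Klhdc10, 0.796), Dnmt3b (Mettl11b, 0.790) and Uhrf1 (LOC100363869, 0.748) had no gene above 0.80. These are the highest of many correlations over few libraries and are given as a description.

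**Figure D4:**
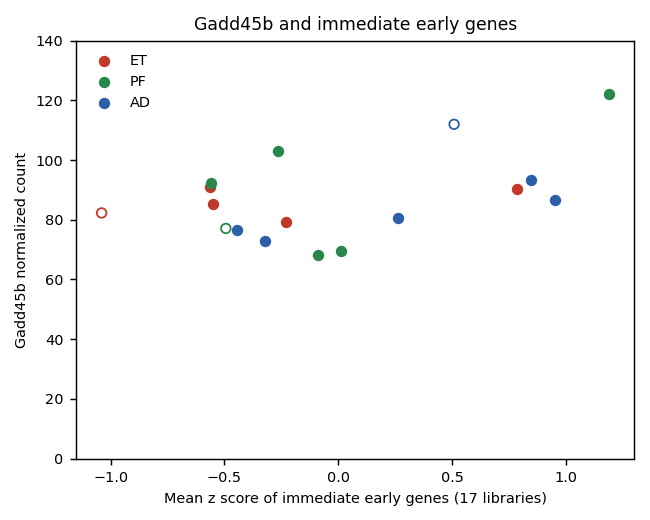
Normalized counts of Gadd45b against the mean z score of the immediate early genes, with filled points for the 14 libraries analysed and open points for the 3 the study left out. PF replicate 6, at 122 normalized counts, has the highest score, and the remaining points show no clear order.

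Gadd45b is known to be induced with the immediate early genes, the first genes that neurons transcribe when they fire, and its level was therefore set against the mean z score of 18 of these genes over the 14 libraries. Pearson r was 0.431 (permutation p = 0.125, adjusted over 3 relations 0.375) and Spearman rho 0.178 (permutation p = 0.541, adjusted 0.902). Without PF replicate 6 and AD replicate 1, r was 0.102, and with diet means removed it was 0.506. The relation did not pass the test. Uhrf1 and Dnmt1, both used when DNA is copied, were set in the same way against 14 genes of dividing cells. Uhrf1 gave r = 0.0544 and rho = 0.103 (permutation p = 0.851 and 0.728, adjusted 0.851 and 0.902), and Dnmt1 gave r = 0.103 and rho = 0.0374 (permutation p = 0.725 and 0.902, adjusted 0.851 and 0.902). Without ET replicates 4 and 5, r was 0.0831 for Uhrf1 and 0.425 for Dnmt1.

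**Figure D5:**
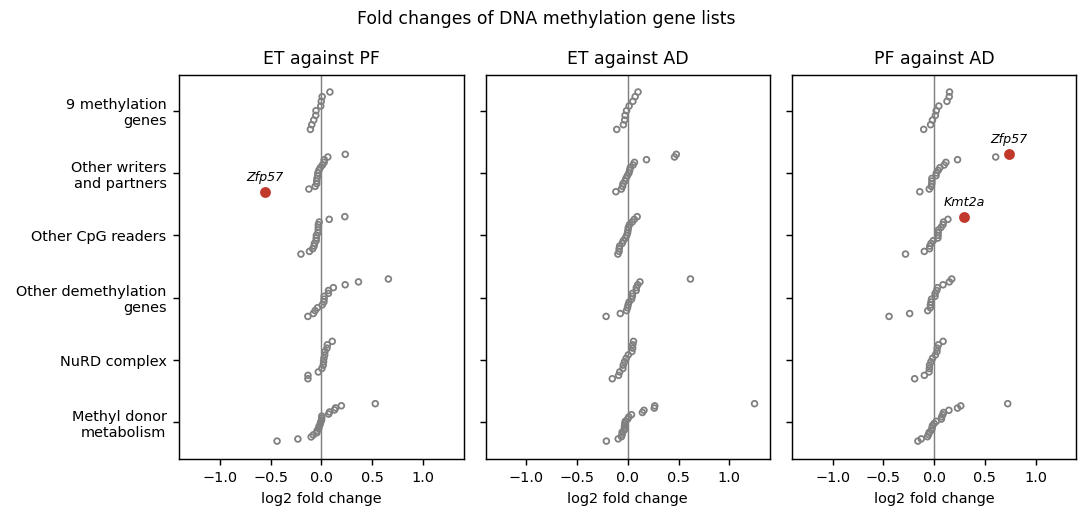
Log2 fold changes of the 9 methylation genes and of the genes in 5 lists of related function for the 3 diet comparisons (edgeR), with filled points for genes past an adjusted p of 0.05. Zfp57 is filled in ET against PF (-0.55) and in PF against AD (0.74), and Kmt2a in PF against AD (0.30).

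The wider machinery was followed in 5 lists. In ET against PF, edgeR's adjusted p rule was passed by 1 of 15 other writers and their partners and by 0 of 15 other readers, 0 of 14 other demethylation genes, 0 of 12 NuRD subunits and 0 of 19 genes of methyl donor metabolism, against 4.13% of all genes. At an unadjusted p below 0.05 these counts were 1, 0, 1, 0 and 3, against 11.9% of all genes. Zfp57, a KRAB zinc finger that protects methylation at imprinted regions, was the 1 that changed. It measured 585, 615, 514 and 609 normalized counts in ET, 747, 848, 854, 865 and 935 in PF, and 445, 522, 545, 512 and 529 in AD. Every PF library lay above every ET and AD library, while ET and AD overlapped. ET was below PF by 0.55 on the log2 scale (SE 0.08, edgeR adjusted p = 0.00124), PF above AD by 0.74 (SE 0.07, adjusted p = 1.29e-05) and ET above AD by 0.18 (SE 0.08, adjusted p = 1). With the replicate number as a block, the ET against PF value was -0.42 and no longer passed in edgeR (adjusted p = 0.263). That fit left out PF animal 11f5, which has no number, and ET and PF shared only 2 replicate numbers. Zfp57 overlaps the oligodendrocyte gene Mog in the annotation, and Mog itself measured -0.07 (SE 0.11) in ET against PF and 0.14 (SE 0.10) in PF against AD. Mog was thus the lowest and then the highest of 6 oligodendrocyte markers, whose medians were 0.39 and -0.29. Whether Zfp57 and Mog share counts was not tested. Neither Zfp57 change reached the stricter rule.

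Kmt2a, a histone methyltransferase with a CXXC domain that binds unmethylated CpG, was higher in PF than in AD by 0.30 (SE 0.05, edgeR adjusted p = 0.00399), as 1 of 15 other readers. Its 5 PF libraries ran from 1629 to 1863 normalized counts and its 5 AD libraries from 1357 to 1502, without overlap, whereas ET ranged from 1050 in replicate 1 to 2118 in replicate 3. When the 3 diets shared 1 estimate of the spread, Kmt2a no longer passed (adjusted p = 0.293). Zfp57 was the 1 of 15 other writers that passed in PF against AD, with 0 of 14 demethylation genes, 0 of 12 NuRD subunits and 0 of 18 methyl donor genes, and unadjusted p-values below 0.05 numbered 3 for writers, 3 for readers, 4 for demethylation genes, 1 for NuRD and 2 for methyl donor genes. Over all genes, 5.17% passed and 16.4% had an unadjusted p below 0.05. In ET against AD, 0 genes of the 5 lists passed, with 1, 0, 1, 0 and 2 at an unadjusted p below 0.05 in the same order (2.74% of all genes), and by the stricter rule 0 passed in any of the diet comparisons.

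Among listed genes that did not pass were Apobec1, a cytidine deaminase, and relatives of Gadd45b. Apobec1 stood at 0.66 (SE 0.23, adjusted p = 0.216) in ET against PF. Gadd45a stood at 0.36 (SE 0.17, adjusted p = 0.468) in ET against PF and -0.24 (SE 0.10, adjusted p = 0.244) in PF against AD, and Gadd45g at 0.23 (SE 0.19, adjusted p = 0.783) and -0.44 (SE 0.14, adjusted p = 0.122). Folr1, a folate receptor, is also a choroid plexus marker and stood at 1.25 (SE 0.49, adjusted p = 1) in ET against AD. Over the 3 diet comparisons, the medians of the 5 lists lay between -0.05 and 0.04 on the log2 scale, beside medians of -0.00 to 0.01 over all genes.

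Markers of other cells were read in the same comparisons. The thalamic marker Tnnt1 was higher in ET than in PF by 1.60 (SE 0.30, edgeR adjusted p = 0.00944) and lower in PF than in AD by 1.80 (adjusted p = 0.000736), as 1 of 6 thalamic markers tested in each. Summed thalamic counts were 1010 to 2133 in ET, 659 to 1048 in PF and 970 to 1244 in AD. Of the oligodendrocyte markers, Mag was lower in PF than in AD by 0.40 (SE 0.10, edgeR adjusted p = 0.0366), a call that was lost with left hippocampi only (adjusted p = 0.100), in 1 fit of the 3 diets (adjusted p = 0.0924), and without any of PF replicates 1, 2 and 3, PF animal 11f5 and AD replicates 2 and 6, while its log2 fold change stayed between -0.44 and -0.32 over 19 alternatives. The summed counts of 6 such markers ran from 271828 to 350122 in ET, 197560 to 270562 in PF and 231219 to 327466 in AD. Every ET library thus lay above every PF library, though the nearest were close. In ET against PF, 1 of the 6 passed edgeR's adjusted p rule as higher, and their median log2 fold change was 0.39. Summed counts of 15 genes of dividing cells were 1302 to 1421 in ET, 1220 to 1284 in PF and 1244 to 1400 in AD, so that ET and PF did not overlap. In ET against PF, 0 of the 14 of these genes tested passed in edgeR and 1, Top2a (0.38, SE 0.12, adjusted p = 0.139), had an unadjusted p below 0.05, while all 14 log2 values lay above 0, from 0.01 to 0.49 with a median of 0.13. Of 8 microglial, 6 astrocyte and 6 endothelial markers 0 passed in edgeR in any diet comparison. Choroid plexus markers also had 0 passing. Their median log2 fold change was 0.07 in ET against PF (10 tested), 1.25 in ET against AD (9 tested) and 1.37 in PF against AD (10 tested). The part of these differences in the values of Zfp57, Kmt2a and the 9 methylation genes was not tested.

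The 3 libraries the study left out were compared with the 14 gene by gene. Of their 27 values for the 9 genes, 23 lay inside the range of the 14, 2 below it and 2 above. Dnmt1 was lowest in ET replicate 2 (422 normalized counts) and Dnmt3a in AD replicate 4 (788), while Mbd2 was highest in ET replicate 2 (509) and Dnmt3b, at 15.3 in PF animal 11f6, was level with the highest of the 14. With all 17 libraries in the fit, the Mbd2 value in ET against PF was 0.12 (adjusted p = 0.326), and 0 of the 9 genes passed in any diet comparison.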

How the data were processed

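Paired-end reads of stranded mRNA libraries from 17 hippocampi were trimmed (fastp), aligned by Bowtie2 2.4.2 to mRatBN7.2, a rat assembly, and counted on exons with featureCounts 2.0.1 at a minimum mapping quality of 10, with reads allowed to count for several features. The strand setting and annotation release are not given in the sources used here. The authors deposited estimated counts, that is fragments per gene averaged over 3 technical replicates without normalization.

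Averaged counts were rounded, low genes removed with filterByExpr, libraries scaled by TMM, and groups tested in edgeR 4.0.16 (R 4.3.3) by quasi-likelihood F tests, with p-values adjusted over all genes tested. All 9 methylation genes passed the filter in each comparison. Standard errors are the absolute log2 fold change over the square root of F, and 95% intervals use the degrees of freedom of the fit. For low counts the edgeR p can be larger than the interval implies. The methylation genes and the related lists were chosen with earlier results of these data known. Named genes are the 9, the list genes that passed or had the 3 largest changes, and the 3 genes most correlated with each of the 9; some of them are not reported here. The 14 libraries are those the study kept. PF animals 11f5 and 11f6 are named as in the table because labels do not number them. Alternatives were DESeq2 1.42.0, median-of-ratios scaling, no filter, sums of technical replicates, all 17 libraries, left hippocampi only, 1 fit of the 3 diets, sex as a covariate, the replicate block, and leaving out each library. The fits were tested on simulated data. Correlations used 100000 permutations in scipy 1.17.1 (Python 3.11.15, numpy 2.4.6, pandas 2.3.3), and plots matplotlib 3.10.9. Overlaps between genes were taken from the GRCr8 annotation, in which 91.1% of tested genes matched for span. No 2 libraries of a diet agreed within sampling noise (smallest chi-square per gene 9.16 over 40 pairs). Counts were made without molecular identifiers.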

Additional observations from a re-analysis of the deposited data

Results flagged for a closer look

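Tet2 in PF replicate 3, at 481 normalized counts, stood apart from the other 4 PF libraries, of which the nearest had 425. The gap took up 0.763 of the range of the group, above the critical value of 0.710 for 5 samples. It was the 1 such case among 27 pairs of gene and diet, and chance alone gives about 1 in 20. Without that library, Tet2 was higher in PF than in AD by 0.10 on the log2 scale (SE 0.05, edgeR adjusted p = 0.410).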

How the results depend on the processing

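The count of 0 of the 9 methylation genes was obtained in all 162 recounts, over both rules and the 18, 18, 19, 13 and 13 alternatives run for ET against PF, ET against AD, PF against AD, sex, and sex by diet. Of 492 refitted log2 fold changes of the 9 genes between diets, 0 passed the adjusted p rule (smallest adjusted p 0.137, Tet2 in PF against AD with left hippocampi only) and 51 had the opposite sign. For sex and its interaction with diet, 35 of 233 had the opposite sign and 0 passed. Mbd2 remained above 0 in ET against PF and ET against AD under every alternative. Dnmt3b had too few counts to pass the filter in 3 refits of ET against PF (the replicate block, and without PF animal 11f5 or PF replicate 6) and in 1 of male against female (without ET replicate 3).

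Opposite signs arose with all 17 libraries Dnmt3a -0.0084 (ET against PF), Uhrf1 0.0079 (ET against PF), Gadd45b -0.023 (ET against AD), Mbd2 -0.0055 (PF against AD) and Tet3 -0.025 (male against female), with left hippocampi only Dnmt3a -0.031 (ET against PF), Gadd45b 0.17 (ET against PF), Tet3 0.011 (ET against AD), Mag -0.010 (ET against AD), Dnmt1 0.019 (PF against AD), Dnmt3a 0.0063 (PF against AD), Uhrf1 0.039 (PF against AD) and Gadd45b -0.046 (PF against AD), with sums of technical replicates Uhrf1 0.010 (ET against PF), with sex as a covariate Uhrf1 0.020 (ET against PF). When libraries were left out in turn, several log2 fold changes crossed 0. In ET against PF these were Dnmt1 -0.039 to 0.014, Dnmt3a -0.045 to 0.069, Uhrf1 -0.068 to 0.081, Tet1 -0.19 to 0.061, Tet3 -0.15 to 0.035 and Gadd45b -0.17 to 0.052. In ET against AD these were Dnmt3a -0.088 to 0.030, Dnmt3b -0.097 to 0.091, Tet1 -0.18 to 0.070, Tet2 -0.082 to 0.13, Tet3 -0.10 to 0.078, Kmt2a -0.10 to 0.24 and Mag -0.087 to 0.11. In PF against AD these were Dnmt1 -0.030 to 0.0070, Dnmt3a -0.078 to 0.0089, Dnmt3b -0.025 to 0.24, Tet1 -0.026 to 0.048, Tet3 -0.0023 to 0.094 and Mbd2 -0.012 to 0.041. In male against female these were Dnmt3a -0.037 to 0.085, Tet1 -0.14 to 0.12, Tet2 -0.21 to 0.0028, Tet3 -0.071 to 0.12 and Gadd45b -0.13 to 0.23. In the interaction of sex and diet these were Dnmt1 -0.11 to 0.020, Dnmt3a -0.27 to 0.068, Tet1 -0.33 to 0.41, Tet2 -0.30 to 0.32, Tet3 -0.26 to 0.29, Mbd2 -0.032 to 0.076 and Gadd45b -0.44 to 0.36. None of the 3 planned relations passed under any alternative. The median in place of the mean z score gave Uhrf1 r = -0.0070, and all 17 libraries gave Dnmt1 r = -0.251 with dividing cell genes.

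The deviations of same-numbered rats correlated from -0.237 to 0.582 over the 9 pairs. In ET against AD and PF against AD their means were -0.0594 and -0.0273, against 0.0154 and -0.00114 for differently numbered rats. In ET against PF the mean was 0.281 against -0.0485, but over only 2 same-numbered pairs, too few to show whether the numbers pair these samples. With the replicate block, 0 of the 9 genes passed in each diet comparison, and signs turned for Dnmt1 0.014 (ET against PF), Dnmt3a 0.097 (ET against AD), Tet1 0.015 (ET against AD), Tnnt1 0.073 (ET against AD) and Dnmt3b -0.13 (PF against AD). Zfp57 in ET against PF lost its call under the block (-0.42, adjusted p = 0.263), and genes called in ET against PF fell to 37 higher and 322 lower, from 87 and 577. With only 2 replicate numbers shared by ET and PF, this fit compares the diets on few libraries. Kmt2a lost its call in 1 fit of the 3 diets (0.30, adjusted p = 0.293). Mag in PF against AD lost its call with left hippocampi only, in 1 fit of the 3 diets, and without PF replicates 1, 2 or 3, PF animal 11f5 or AD replicates 2 or 6, with log2 fold changes from -0.44 to -0.32 over its 19 alternatives. The cause was not tested.

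Over all genes, DESeq2 called 160 genes higher in ET than in PF and all 17 libraries 201, against 87. DESeq2 called 6 higher and 5 lower in ET against AD, against 0 and 2, and 230 lower in PF against AD, against 135. Leaving out 1 library gave 44 to 115 and 69 to 306 for the first and last of these. Strict calls higher in ET than in PF ranged from 2 to 10, against 6, those lower fell to 194 under the block, against 343, and without a filter strict PF against AD calls were 485 higher and 8 lower, against 323 and 4. Depth limited Dnmt3b most, with 7.33 to 15.7 fragments per library.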
